A study of Oryza sativa with 6 samples.

Results

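The jasmonate ZIM-domain (JAZ) proteins are the repressors of the jasmonate hormone pathway and belong to the TIFY family of plants. The account below covers 10 rice JAZ genes, chosen by identifier from the 39477 loci of a leaf transcriptome. They are TIFY11A, TIFY11C and TIFY11B (Os03g0180800, Os03g0180900 and Os03g0181100, a run of neighbouring genes on chromosome 3), TIFY11E and TIFY11D (Os10g0391400 and Os10g0392400, close together on chromosome 10), TIFY10B (Os07g0615200, chromosome 7), TIFY10C and TIFY6B (Os09g0439200 and Os09g0401300, chromosome 9), TIFY6A (Os08g0428400, chromosome 8) and TIFY3 (Os04g0653000, chromosome 4). The deposited file does not pair identifiers with names. Each name was found in a RefSeq gene table of another rice assembly on the chromosome that the identifier gives, and where several of the names lie on 1 chromosome they stand in the same order in both.

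In the known pathway, JAZ proteins bind bHLH transcription factors and, through the adaptor NINJA and co-repressors of the TOPLESS type, keep their target genes silent. Jasmonoyl-isoleucine, the active hormone, joins JAZ proteins to the F-box receptor COI1, after which they are degraded and the bHLH factors are released. Many JAZ genes are themselves switched on by that release, so JAZ transcripts are widely used as a readout of jasmonate signalling in leaves.

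Poly(A) RNA from mature leaves of Oryza sativa was sequenced at 60 days after germination in 3 libraries of a knockout of SRL1 (srl1-KO) and 3 libraries of a control without it (non-KO), all grown in a greenhouse. The labels give neither the cultivar, the nature of the mutation nor the number of independent lines, and the protocol names 1 plant as the source of leaves. Nothing says whether the 3 libraries of a genotype came from separate plants, so the p-values measure only the spread between these libraries, which may be technical. SRL1 is a gene known for its effect on leaf rolling, and the comparison asks how the leaf transcriptome differs without it.

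Levels are FPKM values (fragments mapped to a gene, scaled by its length and by the library's mapped fragments). They summed to between 598611 and 628270 per library, the depth in fragments is unknown, and steps in the values of barely detected loci put the depth of 5 libraries at 0.889 to 0.946 of that of the remaining one. Os07g0102300, taken as SRL1 without a name in the reference table, was at 1.62, 2.22 and 1.96 FPKM in srl1-KO and 2.50, 2.70 and 3.30 FPKM in non-KO (limma adjusted p = 0.107), and a knockout that leaves a transcript cannot be checked this way. The 3 leaf markers, a pair of Rubisco small subunit genes and Rubisco activase, summed to 6073 to 7318 FPKM in srl1-KO and 6206 to 11681 FPKM in non-KO. OSH1, a gene of the shoot meristem, was at 0 in 5 of the 6 libraries and at 0.0171 FPKM in the other. The xylem and fibre markers CESA4, CESA7 and CESA9 summed to 2.82, 3.25 and 8.07 FPKM in the srl1-KO libraries and to 3.49, 2.05 and 18.4 FPKM in the non-KO libraries, replicate 3 being highest in both. In such bulk tissue, fewer cells of a type and less RNA per cell cannot be told apart.

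JAZ transcripts were far less abundant in the knockout. The 10 genes summed to 301 ± 125 FPKM (SD, n = 3) in srl1-KO and to 2001 ± 410.2 FPKM in non-KO, a 6.64-fold difference. By library the sums were 421, 311 and 172 FPKM in srl1-KO against 1583, 2402 and 2019 FPKM in non-KO. The test called a fall in 9 of the 10 genes, all but TIFY6A, and no rise (limma on log2(FPKM + 1), Benjamini-Hochberg adjusted p under 0.05 over 19556 tested loci). Over all tested loci the share that fell was 11.9% and the share that rose was 15.3%. Rises made up 56.3% of those calls, or 43.5% with TMM-like scaling, under which the same count of 9 members fell. All 10 genes passed the filter of a mean of 1 FPKM over the 6 libraries. TIFY11A, whose srl1-KO mean was under 1 FPKM, passed it only through the non-KO libraries, where it was high. Its call is thus no support, and the 9 falls include it. The median log2 change of the 10 genes, srl1-KO minus non-KO, was -2.68, beside 0.11 for all tested loci. In 9 of 10 genes every srl1-KO library lay below every non-KO library, which held for 17.8% of tested loci. For each of those 9 a two-sided exact permutation test of the 3 libraries against 3 gave p = 0.1, the smallest it can give, and for TIFY6A it gave p = 0.4.

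**Figure D1:**
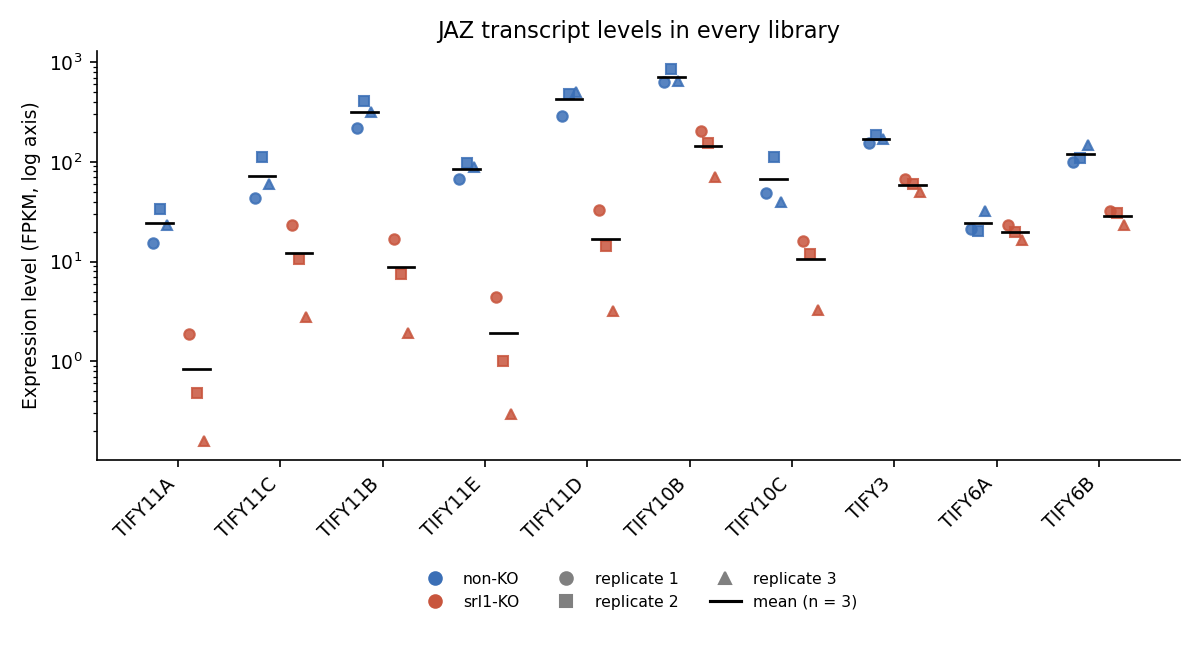
FPKM (log axis) of the 10 JAZ genes in each of 3 non-KO and 3 srl1-KO libraries; symbols mark the replicate and black bars the mean. The genotypes are separate in 9 genes and overlap in TIFY6A, and srl1-KO replicate 3 is the lowest srl1-KO library in all 10.

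The 5 TIFY11 genes, which make up the 2 clusters, included the members that fell most. TIFY11B, known from overexpression in rice to increase grain size, was at 17.0, 7.53 and 1.91 FPKM in srl1-KO and at 219, 406 and 314 FPKM in non-KO, replicates 1 to 3 in turn here and below. The lowest control library was thus far above the highest knockout library. Its mean was 35.6-fold lower in srl1-KO, a log2 change of -5.32 ± 0.63 (SE, adjusted p = 0.00196 by limma). It was -4.62 without srl1-KO replicate 3 and -5.93 without srl1-KO replicate 1, past the threshold in both.

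TIFY11E, another repressor gene of the same subgroup, was at 4.45, 1.01 and 0.297 FPKM in srl1-KO and at 67.4, 96.8 and 89.6 FPKM in non-KO. The control libraries lay close together and the knockout libraries spread over a 15.0-fold range, entirely below them. The fall was 44.1-fold on the mean, or -5.13 ± 0.50 on the log2 scale (SE, adjusted p = 0.000908 by limma).

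TIFY11D, its neighbour on chromosome 10 and the most abundant of the subgroup in both genotypes, was at 32.7, 14.3 and 3.19 FPKM in srl1-KO and at 288, 479 and 499.9 FPKM in non-KO. Again no knockout library reached the control range. The mean was 25.3-fold lower, with a log2 change of -4.99 ± 0.71 (SE, adjusted p = 0.00402 by limma). Without srl1-KO replicate 3 the log2 change was -4.18 and without srl1-KO replicate 1 it was -5.68, both past the threshold.

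TIFY11A, the first gene of the chromosome 3 run, had the lowest mean of the members in both genotypes. In non-KO that mean, 24.3 FPKM, was close to the 24.5 FPKM of TIFY6A, and the libraries of these genes overlapped. TIFY11A was at 1.88, 0.485 and 0.159 FPKM in srl1-KO and 15.4, 34.0 and 23.5 FPKM in non-KO. It was under 1 FPKM in 2 of the 3 knockout libraries. The fall was 28.8-fold on the mean and -3.82 ± 0.40 on the log2 scale (SE, adjusted p = 0.00125 by limma), a scale that understates changes at such low levels.

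TIFY11C, which lies between the other two genes of that run, kept more of its transcript, at 23.3, 10.6 and 2.79 FPKM in srl1-KO and 43.9, 112 and 60.4 FPKM in non-KO. The ranges of the genotypes did not meet. Its mean was 5.89-fold lower, with a log2 change of -2.73 ± 0.68 (SE, adjusted p = 0.0284 by limma). That change was -2.01 without srl1-KO replicate 3 and -3.35 without srl1-KO replicate 1. Leaving out srl1-KO replicate 2 or any non-KO library ended this call (adjusted p from 0.0532 to 0.0812), as did testing loci of any level (adjusted p = 0.0566).

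Both TIFY10 genes among the members fell. TIFY10B, the most abundant member in both genotypes, was at 202, 155 and 70.8 FPKM in srl1-KO and at 624, 846 and 645 FPKM in non-KO. It remained the largest JAZ transcript in the knockout although every knockout library lay well under the control range. The mean was 4.94-fold lower, with a log2 change of -2.41 ± 0.38 (SE, adjusted p = 0.00565 by limma).

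TIFY10C, listed in the table also as JAZ8 and known in rice from work on jasmonate-induced resistance to bacterial blight, was at 16.3, 12.0 and 3.30 FPKM in srl1-KO and 49.0, 112 and 39.8 FPKM in non-KO. Both genotypes spread widely, and non-KO replicate 2 stood well above the other control libraries. The fall was 6.37-fold on the mean and -2.64 ± 0.60 on the log2 scale (SE, adjusted p = 0.0202 by limma), and -2.03 without srl1-KO replicate 3. Without non-KO replicate 1 or non-KO replicate 2 it missed the threshold (adjusted p = 0.0518 and 0.0533).

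TIFY3 and the TIFY6 genes had the 3 smallest log2 changes of the 10 members, but the split from the other members was not clean. The difference of TIFY3 from TIFY11C and from TIFY10C overlapped between the genotypes (two-sided exact permutation p = 0.2 for each). So did that of TIFY6B from TIFY11C, TIFY10B and TIFY10C (exact permutation p = 0.4, 0.4 and 0.5). The smallest p that 3 against 3 libraries allow is 0.1. TIFY3, also named EG2 or JAZ1 and known for its part in spikelet development, was at 67.1, 59.4 and 49.7 FPKM in srl1-KO and at 155, 186 and 169 FPKM in non-KO. Libraries of a genotype lay close together, and the genotypes were well apart. The mean was 2.89-fold lower, with a log2 change of -1.52 ± 0.14 (SE, adjusted p = 0.000785 by limma).

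TIFY6B, listed also as JAZ4, was at 32.5, 30.8 and 23.5 FPKM in srl1-KO and 99.9, 110.4 and 146 FPKM in non-KO. The ratio of its highest to its lowest library was 1.38 in srl1-KO and 1.46 in non-KO, beside 1.35 and 1.20 for TIFY3. The mean was 4.11-fold lower, with a log2 change of -1.99 ± 0.19 (SE, adjusted p = 0.000786 by limma).

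TIFY6A, listed also as JAZ3, was at 23.4, 19.6 and 16.6 FPKM in srl1-KO and at 21.2, 20.3 and 32.0 FPKM in non-KO. Its libraries overlapped, and srl1-KO replicate 1 lay above 2 of the 3 control libraries. The log2 change of -0.27 did not pass the test (limma adjusted p = 0.359), and its 95% interval ran from -0.77 to 0.22. TIFY6B, the other gene of that subgroup, had an interval from -2.44 to -1.55.

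Whether members changed by different amounts was tested on the within-library difference of log2(FPKM + 1) between 2 members, for all 45 pairs. The difference was separate between genotypes in 34 pairs, among them all 9 pairs with TIFY6A. Each of these had a two-sided exact permutation p of 0.1, the smallest that 3 libraries against 3 allow, or 0.132 after Benjamini-Hochberg adjustment over the 45 pairs, so no pair could pass 0.05. The share of separate pairs among other loci was not computed, so the count of 34 has no background. TIFY6A was already the only member whose own libraries overlapped, so its 9 pairs largely repeat that. The fall of TIFY6B exceeded that of TIFY6A by 1.72 on the log2 scale. TIFY11B and TIFY11E, members of different clusters, differed in their falls by 0.19 on that scale with overlapping libraries (exact permutation p = 0.7), and TIFY11E and TIFY11D by 0.13 (exact permutation p = 0.8).

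The unequal falls changed the make-up of the pool formed by these 10 JAZ transcripts. That pool leaves out TIFY5, TIFY9 and TIFY10A, JAZ genes described further below. TIFY10A had a control mean of 719.7 FPKM, near the 704.9 FPKM of TIFY10B, and a knockout mean of 53.0 FPKM. Shares of a pool with these genes included would differ and were not computed. The 5 TIFY11 genes held 45.3% ± 4.68 (SD, n = 3) of the summed FPKM of the 10 genes in non-KO and 11.5% ± 7.02 in srl1-KO. Their share was 18.8%, 10.9% and 4.84% in the knockout libraries and 40.0%, 46.9% and 48.9% in the control libraries. TIFY3, TIFY6A and TIFY6B together went from 15.9% ± 2.38 to 38.9% ± 11.8 of the pool. TIFY10B alone held 35.5% ± 3.77 in non-KO and 46.3% ± 4.61 in srl1-KO. These are shares of a sum that itself differed between genotypes, so a higher share is not a higher level.

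**Figure D2:**
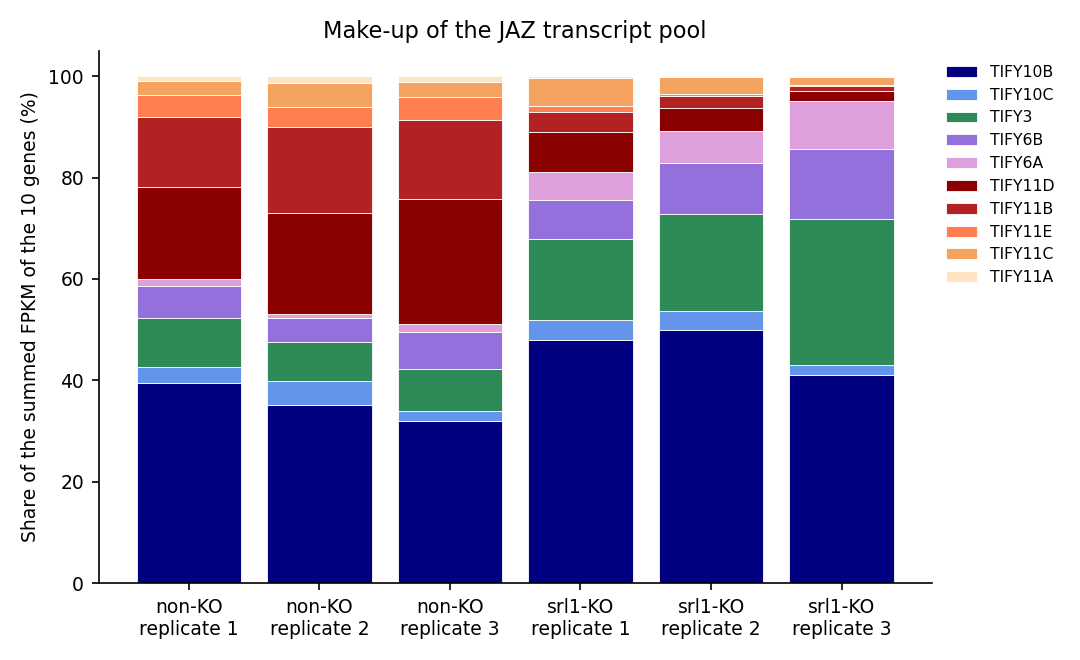
Share of each gene in the summed FPKM of the 10 JAZ genes, in percent, for the 3 non-KO and 3 srl1-KO libraries. The TIFY11 genes (red to pale orange) take 40.0% to 48.9% of the bar in non-KO and 4.84% to 18.8% in srl1-KO.

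The order of the levels of these 10 genes differed accordingly. In non-KO, TIFY10B was followed by TIFY11D, TIFY11B, TIFY3 and TIFY6B, then TIFY11E, TIFY11C, TIFY10C, TIFY6A and TIFY11A. Among neighbours in that order the libraries of TIFY11D and TIFY11B, of TIFY11E and TIFY11C, of TIFY11C and TIFY10C, and of TIFY6A and TIFY11A overlapped. In srl1-KO, TIFY10B was followed by TIFY3, TIFY6B and TIFY6A, each apart from the next, and then by TIFY11D, TIFY11C, TIFY10C, TIFY11B, TIFY11E and TIFY11A, where every neighbour overlapped the next, TIFY6A and TIFY11D included. Among the 10 members, TIFY6A thus stood at rank 9 in non-KO and at rank 4 in srl1-KO.

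The knockout libraries also differed from each other in a common way. In all 10 genes srl1-KO replicate 1 was the highest and replicate 3 the lowest knockout library, a pattern seen at 19.3% of tested loci. The highest knockout library was a median of 6.64 times the lowest over the 10 genes, beside 1.29 times over 19443 tested loci above 0 in all 3 libraries. The range of that ratio ran from 1.35 in TIFY3 to 15.0 in TIFY11E. In TIFY6A and TIFY6B it was 1.41 and 1.38, and in the 5 TIFY11 genes it was 8.35 or more. The largest ratios, of TIFY11E and TIFY11A (15.0 and 11.9), rest on low values, down to 0.297 and 0.159 FPKM. That of TIFY11D, 10.3, had a lowest value of 3.19 FPKM. The median over all loci was not matched for level. In non-KO the same ratio had a median of 1.65 over the 10 genes, beside 1.35 over all loci. Replicate 2 was the highest control library in 7 of the 10, as it was at 32.1% of tested loci. The summed xylem and fibre markers were also highest in srl1-KO replicate 3, at 8.07 FPKM, and higher still in non-KO replicate 3, where JAZ levels were not the lowest of their genotype in 9 of 10 genes. Their part in this spread was not tested. Without srl1-KO replicate 3 the count of members that fell was again 9 and their median log2 change was -2.02, and without srl1-KO replicate 1 these were 9 and -3.19.

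**Figure D3:**
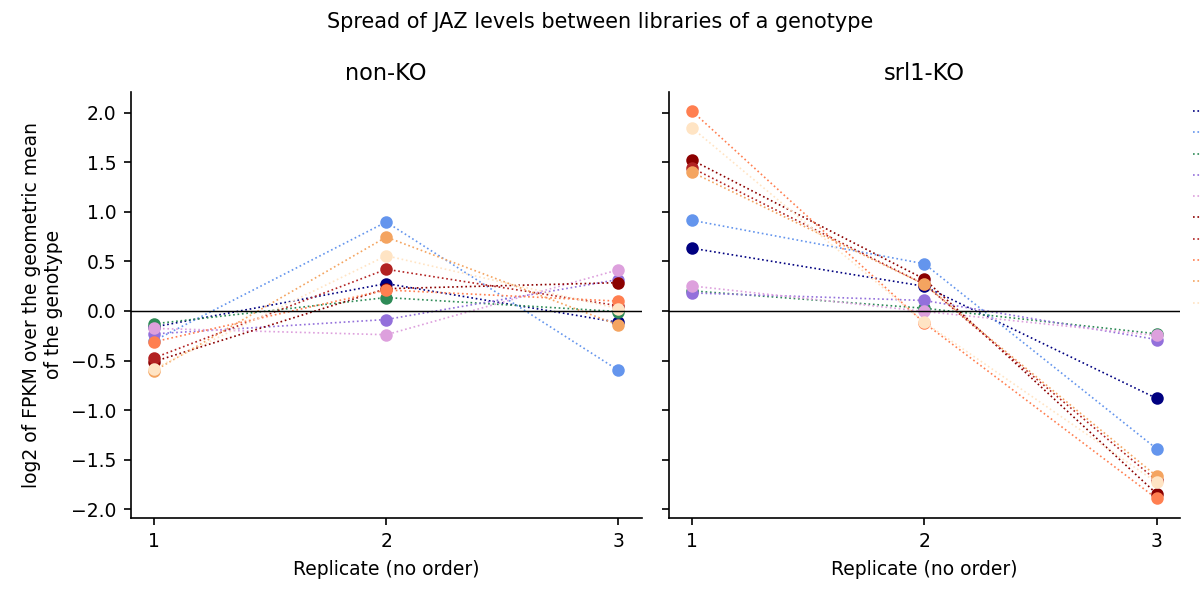
log2 of the FPKM of each JAZ gene over the geometric mean of its own genotype, by replicate number (dotted lines join the values of 1 gene and imply no order). In srl1-KO all 10 genes are highest in replicate 1 and lowest in replicate 3, while TIFY3, TIFY6A and TIFY6B spread least, with ratios of 1.35 to 1.41 between the highest and lowest library.

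Deviations of most members from their genotype means went together when the libraries of both genotypes were pooled. As a description, the deviations of log2(FPKM + 1) from the genotype mean correlated over the 6 libraries with a median Pearson r of 0.87 over the 45 pairs of members, and 30 pairs were over 0.7. TIFY11C and TIFY3 had the highest value, 0.99. TIFY6A correlated with TIFY6B at 0.93 and with the other 8 members between 0.08 and 0.65. These values share the same 6 libraries and their depth. No r was computed within 1 genotype, and members spread more in srl1-KO (median highest-to-lowest ratio of 6.64, beside 1.65 in non-KO). In non-KO, replicate 2 was highest in 7 of the 10 members and replicate 3 in TIFY11D, TIFY6A and TIFY6B. TIFY10C was lowest in non-KO replicate 3. The correlation between pairs of other loci was not computed, and high values are easy to reach with so few libraries. Over all 6 libraries, the pattern of the family mean was most like that of Os01g0699500 and Os01g0597600 (Pearson r = 0.998 and 0.997), out of 19546 other loci. What those 2 loci encode is not given in the sources used here.

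The tested loci beside the 2 clusters showed no such falls. Up to 3 annotated loci on each side of the clusters on chromosomes 3 and 10, and those between TIFY11E and TIFY11D, were taken after their values had been seen. Of these 14 neighbours, 6 were expressed highly enough to be tested, and none passed the test (limma adjusted p of 0.0971 or more), with log2 changes from -0.33 to 0.33. Os10g0391500, which lies between TIFY11E and TIFY11D, was at 13.3, 14.5 and 16.4 FPKM in srl1-KO and 19.4, 15.7 and 21.5 FPKM in non-KO. Os03g0180700, next to TIFY11A, was at 5.55, 5.51 and 6.03 FPKM in srl1-KO and 4.48, 5.12 and 4.89 FPKM in non-KO. At an unadjusted p under 0.05, 1 of the 6 was lower in srl1-KO. The remaining 8 lay below the filter, among them Os03g0181400, next to TIFY11B, at 0.334, 0.323 and 0.326 FPKM in srl1-KO and 0.765, 0.598 and 0.531 FPKM in non-KO. Genes of a cluster can share reads where their sequences are alike, and how such reads were counted is not given in the sources used here.

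**Figure D4:**
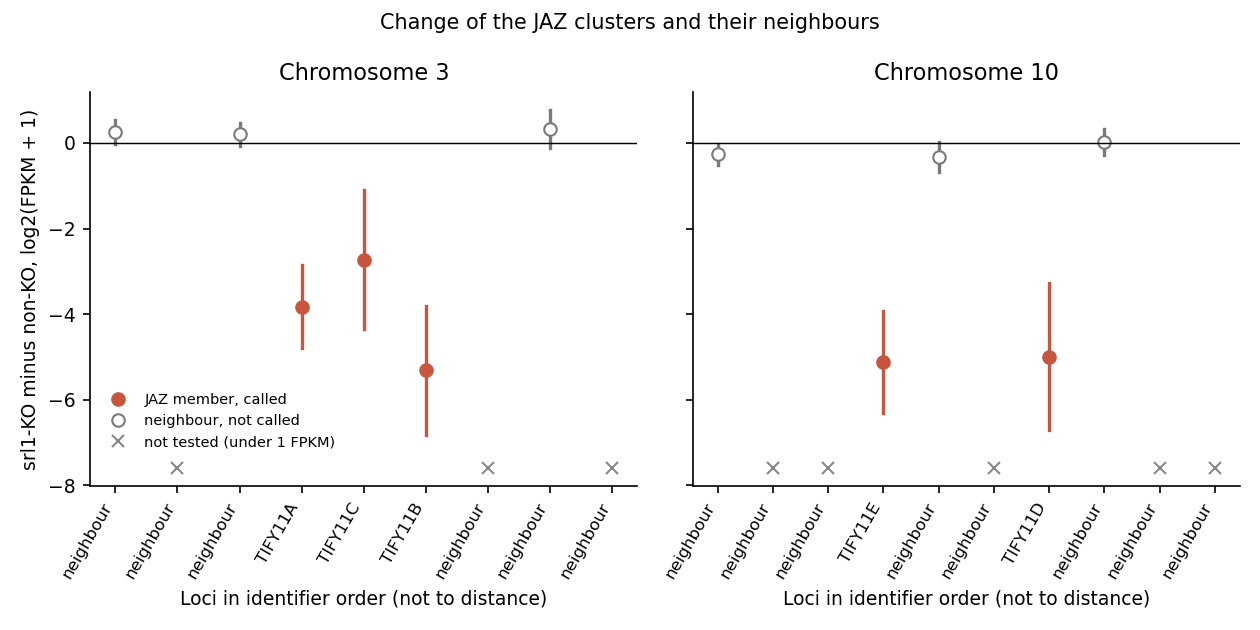
log2 change, srl1-KO minus non-KO, of the JAZ genes of the chromosome 3 and chromosome 10 clusters and of the annotated loci beside them, in identifier order; lines are 95% intervals from limma and crosses are loci under a mean of 1 FPKM. The 5 JAZ genes lie between -5.32 and -2.73 and the 6 tested neighbours between -0.33 and 0.33.

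Of the wider pathway, 24 further identifiers had been listed by role from general knowledge. Earlier results of these data were known by then, so the list is not independent of the data. The 17 with a name in the reference table are given here. The test called 7 falls and 2 rises among them and passed over 8, so that 52.9% were called, beside 27.2% of all tested loci. The 3 other JAZ genes were lower in srl1-KO. TIFY10A, also named JAZ6, was at 80.3, 54.5 and 24.1 FPKM in srl1-KO and at 642, 847 and 670.1 FPKM in non-KO. Its control mean of 719.7 FPKM was near the 704.9 FPKM of TIFY10B. The genotypes did not overlap, with a log2 change of -3.89 ± 0.41 (SE, adjusted p = 0.00126 by limma). TIFY9 fell, averaging 21.0 ± 5.73 FPKM in the controls and 3.00 ± 2.75 FPKM in the knockout (SD, n = 3; adjusted p = 0.0215 by limma), with a log2 change of -2.78, or -2.01 without srl1-KO replicate 3. TIFY5 fell, averaging 3.50 ± 2.17 FPKM in the controls and 0.131 ± 0.0737 FPKM in the knockout (adjusted p = 0.0146 by limma). It passed the filter on low values only through the control libraries, where it was high, so its call is no support. The 7 falls and the 52.9% above include it. The call of TIFY9 was lost without any 1 of the non-KO libraries (adjusted p from 0.0532 to 0.0656) and with a pseudocount of 0.1 (adjusted p = 0.064), and that of TIFY5 without srl1-KO replicate 2 (adjusted p = 0.0536).

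None of the 3 co-repressor genes was called. NINJA1, the adaptor, was at 35.2 ± 2.65 FPKM in srl1-KO and 37.0 ± 4.88 FPKM in non-KO (SD, n = 3 each), with a 95% interval of the log2 change from -0.36 to 0.24. The co-repressor genes TPR1 and TPR3 had intervals from -0.26 to 0.79 and from -0.05 to 0.43. BHLH148, a transcription factor known in rice to bind JAZ proteins, fell 4.65-fold, averaging 80.6 ± 3.39 FPKM in the controls and 17.3 ± 3.62 FPKM in the knockout (adjusted p = 0.000351 by limma).

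Of 3 COI receptor genes and JAR1, 2 rose and none fell. COI1A rose 2.15-fold, averaging 13.9 ± 1.67 FPKM in the controls and 29.8 ± 2.56 FPKM in the knockout (SD, n = 3; adjusted p = 0.00193 by limma). COI2 rose 1.82-fold, averaging 16.9 ± 2.71 FPKM in the controls and 30.8 ± 1.89 FPKM in the knockout (adjusted p = 0.0064 by limma). COI1B, at 34.8 ± 3.22 FPKM in srl1-KO and 29.5 ± 2.29 FPKM in non-KO, did not pass the test, nor did JAR1, the enzyme that joins jasmonate to isoleucine, at 18.5 ± 2.52 and 21.6 ± 5.00 FPKM. The COI1A and COI2 libraries did not overlap between genotypes. Nor did those of TPR3, which was not called, and the share of tested loci separated upward is not given here.

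In hormone synthesis, 3 of 6 genes fell and none rose. AOS1, an allene oxide synthase, fell 9.89-fold, averaging 62.8 ± 6.94 FPKM in the controls and 6.35 ± 1.41 FPKM in the knockout (SD, n = 3; adjusted p = 0.000109 by limma). AOC, the allene oxide cyclase that acts after it, fell 2.14-fold, averaging 239.6 ± 13.99 FPKM in the controls and 112 ± 15.5 FPKM in the knockout (adjusted p = 0.0023 by limma). OPR7, the reductase of the following step, fell, averaging 53.4 ± 5.66 FPKM in the controls and 29.2 ± 4.78 FPKM in the knockout (adjusted p = 0.0086 by limma). AOS2, a second allene oxide synthase gene, was at 7.59, 2.17 and 0.306 FPKM in srl1-KO and at 0.0847, 0.220 and 0.406 FPKM in non-KO. It too was highest in srl1-KO replicate 1 and lowest in replicate 3. It did not pass the test (limma adjusted p = 0.14), but did without srl1-KO replicate 3 (adjusted p = 0.0228). AOS2 passed the filter on low values only through the srl1-KO libraries, where it was higher. Without srl1-KO replicate 1 it was below the filter, so the call without replicate 3 is no support for a rise. The lipoxygenase genes CM-LOX1 and CM-LOX2, of an early step, had 95% intervals of the log2 change from -1.23 to 2.45 and from -1.22 to 0.97, wide enough for a large difference either way. Of the 17 named genes, 10 had srl1-KO replicate 1 highest and replicate 3 lowest, as the 10 JAZ members did.

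**Figure D5:**
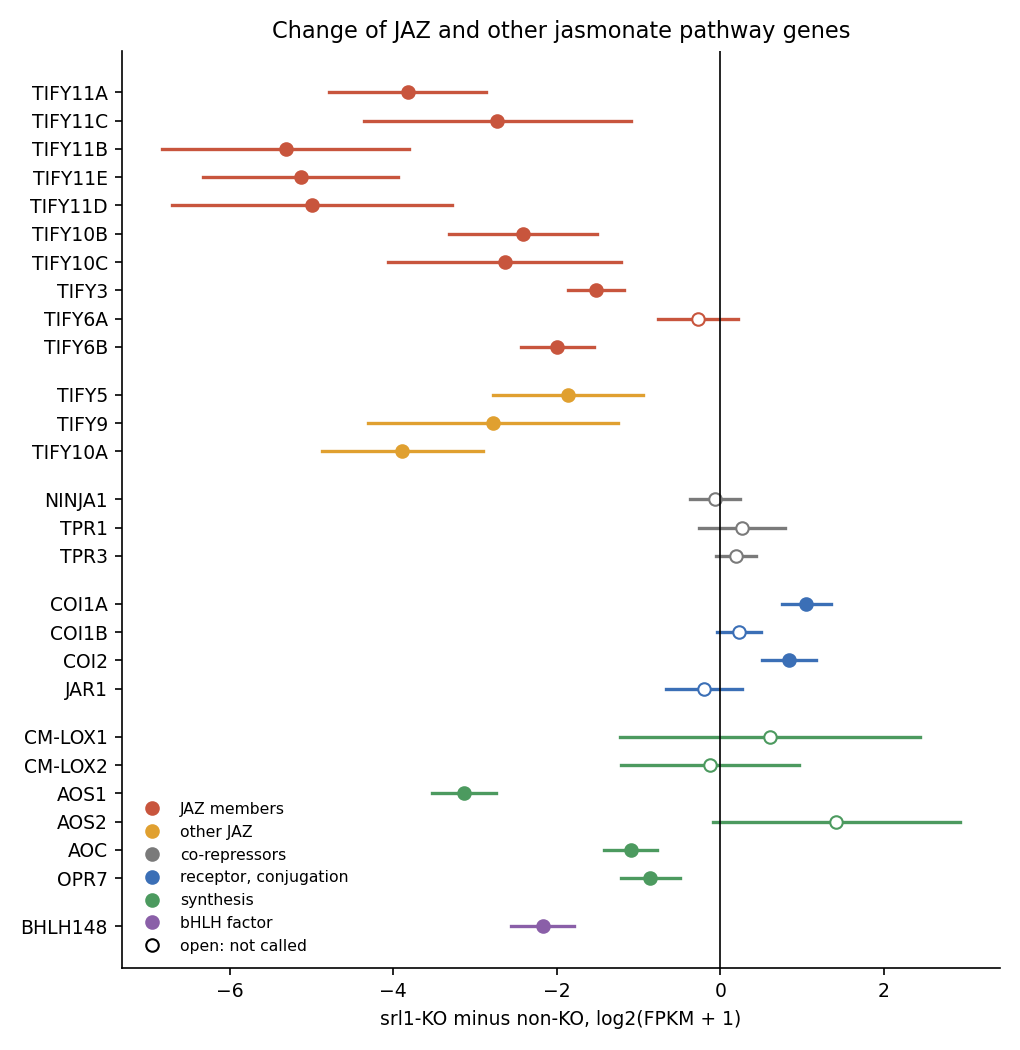
log2 change, srl1-KO minus non-KO, with 95% intervals from limma, for the 10 JAZ members and 17 other named genes of the jasmonate pathway, coloured by role; filled points passed the test at an adjusted p under 0.05. The intervals of the JAZ genes other than TIFY6A lie left of 0, those of COI1A and COI2 lie right of it, and the intervals of NINJA1, TPR1 and TPR3 include 0.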

How the data were processed

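The deposited table holds FPKM values for 6 libraries, which the authors made before deposit with 1 column per library and no pooling of replicates, per the file headers. The authors' tools HISAT2 and DESeq2 and the build IRGSP-1.0 are named without roles in the submitters' processing notes; the sources used here give no FPKM tool, annotation or strand setting. The 10 members and the lists were chosen with earlier results of these data known. Every member is described, and other pathway genes by role: up to 3 called per role, else the most abundant; the others named were chosen after their values were seen. Of 42 identifiers 34 had their name on the stated chromosome of assembly ASM3414082v1, and all 76 same-chromosome pairs kept their order; those without a name are not described, other than SRL1. FPKM values were taken as log2(FPKM + 1) for 19556 loci with a mean of at least 1 and compared with limma 3.58.1 in R 4.3.3 (eBayes with trend, two-sided, Benjamini-Hochberg threshold 0.05). Fold values are ratios of mean FPKM. In simulated data of this comparison on 19556 loci, 88.1% of changes of 2, 61.2% of 1 and 3.03% of 0.5 on the log2 scale were recovered, with 9 false calls. Only 67, 67 and 66 loci were changed in turn, against 5321 called in the data. They were drawn from the more abundant loci, so members as low as TIFY11A were not covered. The recovery need not hold for the data. FPKM values shift when abundant genes change, and absolute depth is unknown, so no counting interval is given. The titles' replicate numbers were not used as pairs.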

Additional observations from a re-analysis of the deposited data

How the results depend on the processing

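In 15 alternative settings, 8 or 9 JAZ members fell with all libraries kept and 7 to 9 without 1 library, and none rose; none of the 10 changed sign. Of 150 values of single members, 143 kept their side of the threshold and 7, all of TIFY11C or TIFY10C, lost it. For the other named pathway genes the count past the threshold was 8 to 10. Without 1 library the log2 change of CM-LOX2 ran from -0.65 to 0.32 and that of NINJA1 from -0.14 to 0.039, turning sign without non-KO replicate 2 and 3 in turn; NINJA1 was also at 0.024 with quantile normalization and 0.00402 with array weights, and none of these was called. Over all loci the calls ran from 2959 to 4638 without 1 library, and the rises from 1324 to 2564, against 5321 and 2995. Array weights gave the most calls, 6662, of which 3935 were rises. TMM-like scaling lowered the share of rises among calls from 56.3% to 43.5%. With the replicate number as a block there were 3649 calls, 1765 of them rises, and the JAZ count stayed at 9. Same-numbered libraries had deviations that correlated at -0.05, 0.05 and 0.02 over all loci, so the numbers are not taken as pairs. Fewer libraries or residual degrees of freedom lower a count by construction; the cause of other changes was not tested.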
